A study of Mus musculus with 6 samples.

Results

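The genes described here encode the MHC class II antigen presentation pathway: the class II chains H2-Aa, H2-Ab1 and H2-Eb1, the peptide exchange factor chains H2-DMa, H2-DMb1 and H2-DMb2, the chains of its modulator H2-Oa and H2-Ob, the invariant chain Cd74 and the transcriptional coactivator Ciita. These 10 genes were picked by symbol among 55536 named genes of an RNA sequencing count table, and all 10 were among the 14719 genes that reached 1 CPM, a count scaled to a common library size, in at least 1 library. The table held 6 libraries of total RNA from C57BL/6 mice 8 weeks old, 1 library per group and no replicate. The groups were macrophages grown from bone marrow for 7 days with GM-CSF and then given interleukin-6 for 3 h (GM-BMDM IL6 3 h), the same macrophages without it (GM-BMDM), macrophages grown for 7 days with M-CSF (M-BMDM) without interleukin-6, after 3 h of it and after 24 h of it, and bone marrow cells that were not cultured (BM). The labels give no sort or gate for any group, name no genetic change, and do not say how many mice gave each library.

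Class II molecules display peptides from endosomes to CD4+ T cells. An alpha and a beta chain pair in the endoplasmic reticulum with the invariant chain, which blocks the peptide groove and guides the complex to endosomes. Cathepsins trim the invariant chain there to a short remnant, DM removes the remnant and edits the peptides, and DO, found mostly in B cells, dampens DM. Transcription of these genes depends on CIITA, which is recruited by RFX, CREB and NF-Y on the X and Y boxes of their promoters. B cells, dendritic cells and activated macrophages are the main cells that use the pathway. C57BL/6 mice make the A molecule but no complete E molecule, since the alpha chain gene of E is defective in this strain, and H2-Ea-ps, its remnant, had 0 counts in 5 libraries and 1 count in M-BMDM IL6 3 h.

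In GRCm38, the build named in the submitters' processing notes, 8 of the 10 genes, all but Cd74 and Ciita, lie close together on chromosome 17. From H2-Oa (chr17:34092340-34095234) the row runs through H2-DMa (chr17:34119541-34139101), H2-DMb2 (chr17:34143307-34151555), H2-DMb1 (chr17:34153072-34160230), H2-Ob (chr17:34238903-34254414), H2-Ab1 (chr17:34257689-34269419) and H2-Aa (chr17:34282744-34287823) to H2-Eb1 (chr17:34305867-34316674). H2-Aa is on the minus strand and the others are on the plus strand. Ciita is on chromosome 16 (chr16:10480059-10528418, plus strand).

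The promoters show what the chain genes share apart from their names. RefSeq promoters (GRCm38.p6, 250 bases before to 50 bases after the gene start) were searched for 7 of the 10 genes. Those of H2-Ab1, Cd74 and Ciita were not searched. The Y box core GATTGG was found on the gene's own strand in a promoter of all 7, and on either strand in 16.1% of the 32851 promoters in the table. An X box was sought 10 to 30 bases before a Y core, allowing 3 mismatches to its 14-letter consensus. It was found on the gene's own strand for 5 of the 7 genes, and on either strand in 0.575% of all promoters. The 6 stretches of 70 bases below are shown because 5 of them hold matches to both boxes at nearly the same spacing, in genes whose levels differed widely. Capitals mark the X box match and the Y core. In H2-Aa, where this search found no X box match, they mark the Y core and TGACGTCA, the letters of the cyclic AMP response element. A miss under this rule does not show that a gene lacks an X box.
H2-Aa: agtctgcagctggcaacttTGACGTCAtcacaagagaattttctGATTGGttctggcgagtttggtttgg
H2-Eb1: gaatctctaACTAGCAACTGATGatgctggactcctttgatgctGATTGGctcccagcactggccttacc
H2-DMb1: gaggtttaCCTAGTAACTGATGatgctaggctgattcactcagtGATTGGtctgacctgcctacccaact
H2-DMb2: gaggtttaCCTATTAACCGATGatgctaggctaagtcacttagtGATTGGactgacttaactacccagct
H2-Oa: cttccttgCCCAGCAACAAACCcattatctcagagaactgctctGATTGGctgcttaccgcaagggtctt
H2-Ob: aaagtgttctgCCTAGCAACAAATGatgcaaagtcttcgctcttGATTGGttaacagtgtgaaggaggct
The stretches lie at chr17:34287847-34287916 (minus strand), chr17:34305763-34305832, chr17:34153085-34153154, chr17:34145114-34145183, chr17:34092291-34092360 and chr17:34238803-34238872 (plus strand), in the order printed. The X box match had 0 mismatches in H2-DMb1, 1 each in H2-Eb1, H2-DMb2 and H2-Ob, and 3 in H2-Oa, and 19 to 22 bases separated it from the Y core. TGACGTCA occurred in 1.79% of all promoters. H2-DMa had 2 promoters in the table, one without a Y core and one with it 199 bases before the gene start, and neither had an X box match. Matches are letters only and were not tested for binding.

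Library totals ran from 18567482 to 24196082 counts. Macrophage markers were detected in every culture: all 10 of a list led by Lyz2, Csf1r and Cd68 had at least 1 CPM, with summed levels of 47526 CPM in GM-BMDM IL6 3 h, 48763 CPM in GM-BMDM and 27358 to 38549 CPM in M-BMDM cultures, against 6361 CPM in BM. B lineage markers summed to 1231 CPM in BM, where all 12 were detected, and to between 4.40 and 43.2 CPM in the cultures, where only Cd22 reached 1 CPM. Dendritic cell markers summed to 1145 CPM in GM-BMDM IL6 3 h and 1147 CPM in GM-BMDM, 134 to 191 CPM in M-BMDM cultures and 248 CPM in BM. Neutrophil markers summed to between 1.78 and 19.2 CPM in the cultures and 37107 CPM in BM, erythroid markers to between 5.35 and 10.2 CPM in the cultures and 79184 CPM in BM, and T and innate lymphoid markers to between 79.9 and 370 CPM in the cultures, almost all of it Il7r, and 79.5 CPM in BM. The genes of the T cell receptor complex Cd3e, Cd3d and Cd3g were at 0 to 0.164 CPM in the cultures and 3.21 to 5.92 CPM in BM. In bulk libraries, fewer cells of a type and less RNA per cell cannot be told apart.

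The class II genes held 0.347% of the counts in GM-BMDM IL6 3 h (exact 95% Clopper-Pearson interval 0.344% to 0.349%) and 0.334% in GM-BMDM (0.332% to 0.336%). The share was 0.166% in M-BMDM (0.164% to 0.168%), 0.183% after 3 h of interleukin-6 (0.182% to 0.185%) and 0.0565% after 24 h of it (0.0555% to 0.0575%). In BM it was 0.143% (0.141% to 0.144%). These intervals, and all those below, cover counting error only. The share was thus highest in the GM-CSF cultures and lowest in the M-CSF culture given interleukin-6 for 24 h.

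**Figure D1:**
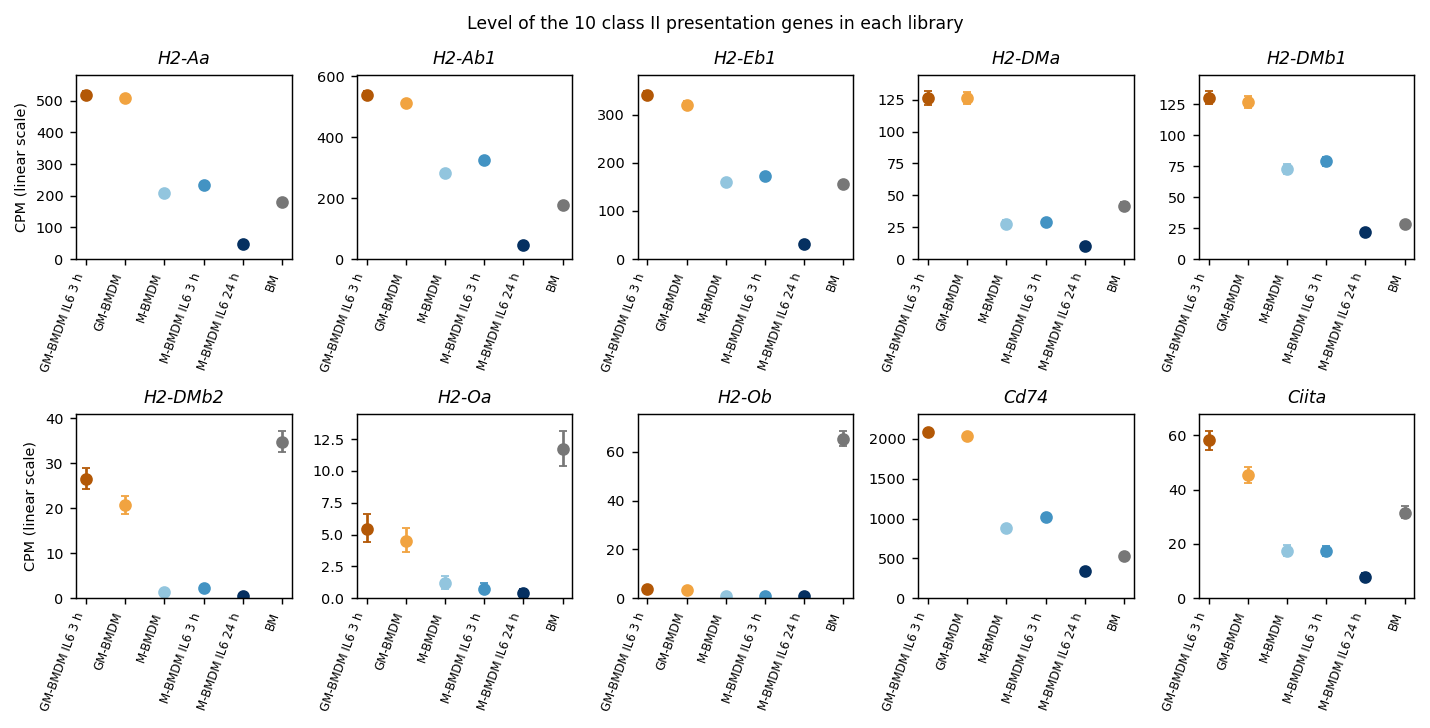
Level of each of the 10 genes (vertical axis, CPM on a linear scale from 0) in the 6 libraries, with exact 95% counting intervals as bars. H2-Aa, H2-Ab1, H2-Eb1, H2-DMa, H2-DMb1, Cd74 and Ciita stood highest in the GM-BMDM libraries and lowest in M-BMDM after 24 h of interleukin-6, whereas H2-DMb2, H2-Oa and H2-Ob stood highest in BM.

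Levels between genes are compared as CPM per kilobase of the gene length in the deposited table. Cd74 had the highest level in every library, with 1476 CPM per kilobase in GM-BMDM IL6 3 h, 1446 in GM-BMDM, 622 in M-BMDM, 721 in M-BMDM IL6 3 h, 245 in M-BMDM IL6 24 h and 379 in BM. The classical chains followed it: H2-Aa, H2-Ab1 and H2-Eb1 had 451, 424 and 273 CPM per kilobase in GM-BMDM, 186, 232 and 137 in M-BMDM, and 159, 147 and 132 in BM. The DM chains H2-DMa and H2-DMb1 came next in the GM-BMDM library, at 114 and 90.4 CPM per kilobase. Ciita, the regulator, was at 10.7 CPM per kilobase in GM-BMDM, 4.12 in M-BMDM and 7.45 in BM, below the classical chains in each of these libraries. The DO chains H2-Oa and H2-Ob were the lowest of the 10 genes in GM-BMDM, at 4.14 and 2.12 CPM per kilobase. In BM the order differed, with H2-Ob at 39.6 CPM per kilobase, above H2-DMa at 37.8 and H2-DMb1 at 20.1.

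The growth factor comparison asks how macrophages grown with GM-CSF differ from those grown with M-CSF. Class II transcripts were more abundant in GM-BMDM. In the pair without interleukin-6, ratios were widest for H2-DMb2 and H2-DMa and narrowest for H2-DMb1, all chains of the peptide loading factor DM. After 3 h the log2 ratio of the DO gene H2-Oa, 2.83 (2.07 to 3.66), stood above that of H2-DMa, 2.11 (1.99 to 2.24), with overlapping intervals. The intervals of H2-Oa, 1.25 to 2.67, and H2-DMa, 2.04 to 2.32, also overlapped without interleukin-6. H2-Oa also stood above H2-DMa in the fit over both pairs, at 2.36 ± 0.34 (SE) and 2.15 ± 0.10 (SE). The order of these genes is thus uncertain. Without interleukin-6, 5 of the 10 genes exceeded their M-BMDM level by 2-fold or more, and 0 were lower; a counted gene also had an interval that excluded equality and 5 CPM or more in the higher library. Among 10495 genes with at least 5 CPM, 10.8% were higher and 8.65% lower by the same rule. After 3 h of interleukin-6 in both cultures, 6 genes were higher and 0 lower, against 10.6% and 8.06% of 10451 genes. The median log2 ratio of the 10 genes was 1.33 without interleukin-6 and 1.44 after 3 h, where the medians of all genes were -0.03 and -0.03.

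The regulator Ciita had 58.1 CPM in GM-BMDM IL6 3 h and 45.2 CPM in GM-BMDM, against 17.3 CPM in M-BMDM IL6 3 h and 17.5 CPM in M-BMDM. Both GM-CSF libraries stood above both M-CSF libraries, by a log2 ratio of 1.75 (95% counting interval 1.58 to 1.92) after 3 h and 1.37 (1.19 to 1.56) without interleukin-6.

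Among the chains of the class II molecule itself, H2-Aa, the alpha chain of A, had 520 CPM in GM-BMDM IL6 3 h and 508 CPM in GM-BMDM, against 235 CPM in M-BMDM IL6 3 h and 209 CPM in M-BMDM. H2-Ab1, its beta chain, had 540 CPM in GM-BMDM IL6 3 h and 513 CPM in GM-BMDM, against 326 CPM in M-BMDM IL6 3 h and 281 CPM in M-BMDM. H2-Eb1, the beta chain of E, had 340 CPM in GM-BMDM IL6 3 h and 320 CPM in GM-BMDM, against 173 CPM in M-BMDM IL6 3 h and 160 CPM in M-BMDM. H2-Aa passed the 2-fold limit and the beta chains did not: the log2 ratio without interleukin-6 was 1.28 (1.23 to 1.33) for H2-Aa, 1.00 (0.94 to 1.06) for H2-Eb1, just short of the limit (1.02 with DESeq2 size factors), and 0.87 (0.82 to 0.92) for H2-Ab1. The invariant chain Cd74 had 2081 CPM in GM-BMDM IL6 3 h and 2039 CPM in GM-BMDM, against 1016 CPM in M-BMDM IL6 3 h and 876 CPM in M-BMDM, with a log2 ratio of 1.22 (1.19 to 1.24) without interleukin-6; after 3 h the log2 ratio was 1.03, or 0.93 and short of 2-fold when scaled by total counts. The gene lies on chromosome 18 (60803848 to 60812652, plus strand, GRCm38).

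The DM genes spread over a wider range. H2-DMa, the alpha chain of DM, had 126 CPM in GM-BMDM IL6 3 h and 126 CPM in GM-BMDM, against 29.2 CPM in M-BMDM IL6 3 h and 27.9 CPM in M-BMDM; the log2 ratio without interleukin-6 was 2.18 (2.04 to 2.32). H2-DMb1, the more abundant beta chain gene in these macrophages, had 130 CPM in GM-BMDM IL6 3 h and 127 CPM in GM-BMDM, against 78.8 CPM in M-BMDM IL6 3 h and 72.9 CPM in M-BMDM, and its log2 ratio without interleukin-6 was 0.80 (0.71 to 0.90). H2-DMb2, the second beta chain gene, had 26.6 CPM in GM-BMDM IL6 3 h and 20.6 CPM in GM-BMDM, against 2.22 CPM in M-BMDM IL6 3 h and 1.504 CPM in M-BMDM. Its log2 ratio of 3.78 (3.23 to 4.39), or 13.7-fold, was the largest among the 10 genes in the pair without interleukin-6. H2-DMb1 and H2-DMb2 share 25.2% of the 50-base words of the longest H2-DMb2 transcript, so the split of reads between them is uncertain. H2-DMa overlaps Brd2 on the opposite strand, which had 5434 to 8054 counts, and Ciita overlaps Dexi in the same way, with 117 to 235 counts; whether counting used strand is not given in the sources used here.

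The DO genes were scarce in all cultures. H2-Oa had 5.46 CPM in GM-BMDM IL6 3 h and 4.51 CPM in GM-BMDM, against 0.771 CPM in M-BMDM IL6 3 h and 1.18 CPM in M-BMDM, and it was the sixth gene past the limit after 3 h, with a log2 ratio of 2.83 (2.07 to 3.66). H2-Ob had 3.99 CPM in GM-BMDM IL6 3 h and 3.49 CPM in GM-BMDM, against 1.09 CPM in M-BMDM IL6 3 h and 1.02 CPM in M-BMDM. The ranges of the GM-CSF and M-CSF libraries did not overlap for either gene, but each M-CSF value rested on 17 to 24 counts.

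A test over both pairs of libraries was made with edgeR's quasi-likelihood fit across all genes. All 10 genes rose in GM-BMDM relative to M-BMDM at a Benjamini-Hochberg adjusted p under 0.05, where 29% of all 14719 genes rose and 27.4% fell. The log2 change was largest for H2-DMb2 (3.66 ± 0.16 SE, adjusted p = 8e-110) and smallest for H2-DMb1 (0.76 ± 0.09 SE, adjusted p = 7.8e-17). Ciita rose by 1.56 ± 0.11 (SE, adjusted p = 2e-47) and Cd74 by 1.13 ± 0.09 (SE, adjusted p = 2.5e-34). The fit had 1 residual degree of freedom, so these p-values rest on a spread shared by all genes, and no label says that the libraries came from separate cultures; a difference between individual cultures would be counted as a difference of growth factor.

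**Figure D2:**
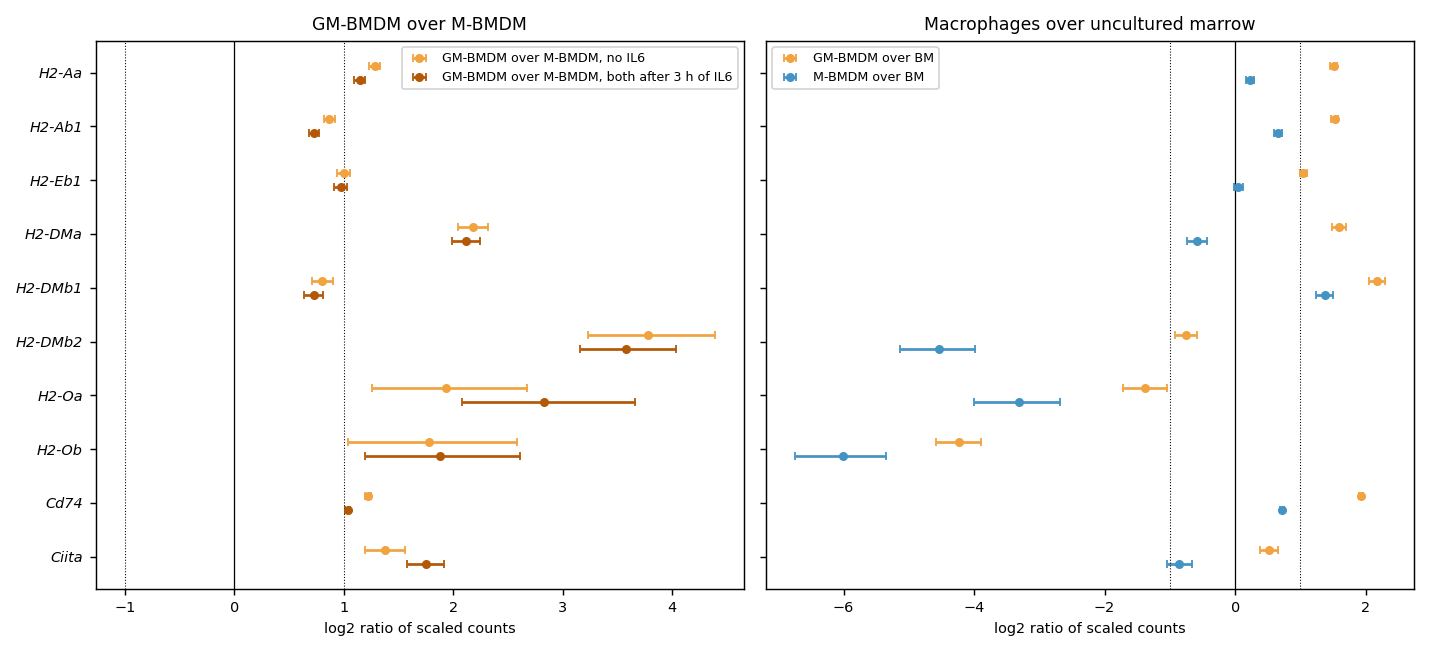
Log2 ratio of scaled counts (horizontal axis) for each gene, with exact 95% counting intervals as bars and dotted lines at 2-fold. On the left, GM-BMDM over M-BMDM after 3 h of interleukin-6 and without it lay above 0 for all 10 genes, with H2-DMb2 at 3.58 and 3.78; on the right, each untreated macrophage culture over BM shows H2-Ob furthest below 0, at -4.23 for GM-BMDM and -6.00 for M-BMDM.

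Markers of other cells also differed between GM-BMDM and M-BMDM. Of 12 dendritic cell markers, 6 had at least 5 CPM in GM-BMDM or M-BMDM. Of these, 5 were higher in GM-BMDM and 0 lower, where 10.8% of 10495 genes were higher and 8.65% lower. Itgax, an integrin, made up most of the sum, with 994 CPM in GM-BMDM and 26.2 CPM in M-BMDM, while Ccr7, a homing receptor of migrating dendritic cells, had 20.2 CPM in GM-BMDM and 0.215 CPM in M-BMDM. Clec9a, a receptor of cross-presenting dendritic cells, had 15.7 CPM in GM-BMDM and 0.107 CPM in M-BMDM. Zbtb46, a transcription factor of classical dendritic cells, had 3.36 CPM in GM-BMDM and 0.322 CPM in M-BMDM, and Batf3, another, had 9.61 CPM in GM-BMDM and 0.591 CPM in M-BMDM. Dpp4, Kmo and Cd209a, at 1.24 to 6.67 CPM in GM-BMDM and 0.0537 to 0.644 CPM in M-BMDM, were also more abundant in GM-BMDM, whereas Xcr1 and Bst2 were not, and Flt3 was at 0.322 CPM in GM-BMDM and 0.322 CPM in M-BMDM and Siglech at 0 in both. Of the 10 macrophage markers, 1 was higher in GM-BMDM and 6 lower, beside the same shares of all genes. Of the 12 B lineage markers, Cd22 alone reached 5 CPM, at 41.4 CPM in GM-BMDM and 4.51 CPM in M-BMDM, whereas Cd79a and Pax5 were at 0.0920 and 0.138 CPM in GM-BMDM and at 0.107 and 0.0537 CPM in M-BMDM. The part of dendritic cells in the class II difference was not tested.

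Genes that act on either side of the pathway differed in both directions. Among 20 genes of the class II transcription complex and its upstream signals, 7 rose and 8 fell in GM-BMDM by the same test, in which 29% of all genes rose and 27.4% fell, and the median log2 change was -0.17. By the 2-fold rule without interleukin-6, Irf4, a transcription factor of dendritic and B cells, was higher, at 55.4 CPM in GM-BMDM and 2.31 CPM in M-BMDM, as was Socs1, an inhibitor of cytokine signalling, at 19.9 CPM in GM-BMDM and 4.08 CPM in M-BMDM; 0 genes of the list were lower. Rfx5, a subunit of the RFX complex on the X box, had 12.2 CPM in GM-BMDM and 12.5 CPM in M-BMDM. Among 15 genes of peptide generation, invariant chain cleavage and surface turnover, 9 rose and 5 fell, beside the same 29% and 27.4%. March1, a ubiquitin ligase that sends surface class II to lysosomes, had 97.5 CPM in GM-BMDM and 10.6 CPM in M-BMDM; its log2 ratio was 3.20 (2.99 to 3.41). Ctsd, an aspartic protease of lysosomes, had a log2 ratio of 1.85 (1.84 to 1.86), Ifi30, a thiol reductase that unfolds antigen, 1.81 (1.72 to 1.90), and Ctsh, a cysteine protease, 1.27 (1.22 to 1.33). Ctss, the protease best known for the last cut of the invariant chain, had 6599 CPM in GM-BMDM and 2858 CPM in M-BMDM. Among 6 genes of T cell contact, 2 rose and 3 fell, too few to set against those shares, among them Cd274, the ligand PD-L1, with 375 CPM in GM-BMDM and 41.0 CPM in M-BMDM, and Cd40, a receptor for helper T cell signals, with 8.32 CPM in GM-BMDM and 47.9 CPM in M-BMDM.

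Against uncultured marrow, most class II genes were higher in GM-BMDM, whereas in M-BMDM 1 was and H2-DMb2 and the DO genes were lower. In GM-BMDM, 6 of the 10 genes were higher than in BM and 2 lower, where 19.8% of 11367 genes were higher and 22.3% lower; the median log2 ratio was 1.28 for the 10 genes and -0.04 for all genes. In M-BMDM, 1 gene was higher than in BM and 3 lower, where 20.1% and 23% of 11245 genes were higher and lower; the medians were -0.27 and 0.02, and the counts of M-BMDM lay near the shares of all genes. Both comparisons used the same BM library. No test against BM was made.

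The 6 genes higher in GM-BMDM were those of the invariant chain, the main DM chains and the classical chains. Cd74 had 2039 CPM in GM-BMDM and 534 CPM in BM, a 3.82-fold difference. H2-DMb1 had 127 CPM in GM-BMDM and 28.2 CPM in BM (4.50-fold), and H2-DMa had 126 CPM in GM-BMDM and 41.9 CPM in BM (3.01-fold). H2-Ab1 had 513 CPM in GM-BMDM and 179 CPM in BM, and H2-Aa 508 CPM in GM-BMDM and 179 CPM in BM, so that both chains of A differed by nearly the same ratio, 2.87-fold and 2.84-fold. H2-Eb1 had 320 CPM in GM-BMDM and 155 CPM in BM, or 2.06-fold, just past the limit; scaled by total counts, its log2 ratio of 0.72 did not pass. Ciita had 45.2 CPM in GM-BMDM and 31.6 CPM in BM, a log2 ratio of 0.52 (0.38 to 0.66) that did not reach 2-fold. In M-BMDM the classical chains were near their level in BM: H2-Eb1 had 160 CPM in M-BMDM and 155 CPM in BM, with an interval of the log2 ratio from -0.02 to 0.12, H2-Aa had 209 CPM in M-BMDM and 179 CPM in BM, and H2-Ab1 had 281 CPM in M-BMDM and 179 CPM in BM. H2-DMb1 alone was higher in M-BMDM, at 72.9 CPM in M-BMDM and 28.2 CPM in BM, while H2-DMa had 27.9 CPM in M-BMDM and 41.9 CPM in BM. Cd74 had 876 CPM in M-BMDM and 534 CPM in BM, a log2 ratio of 0.71 (0.68 to 0.75). Ciita had 17.5 CPM in M-BMDM and 31.6 CPM in BM, a log2 ratio of -0.85 (-1.05 to -0.67), or -1.02 and past 2-fold when scaled by total counts.

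The DO genes and H2-DMb2 stood highest in marrow. H2-Ob, the DO beta chain, had 3.49 CPM in GM-BMDM, 1.02 CPM in M-BMDM and 65.4 CPM in BM, so that it was 18.7-fold lower in GM-BMDM and 64.1-fold lower in M-BMDM. H2-Oa, the DO alpha chain, had 4.51 CPM in GM-BMDM, 1.18 CPM in M-BMDM and 11.7 CPM in BM. H2-DMb2 had 20.6 CPM in GM-BMDM, 1.504 CPM in M-BMDM and 34.8 CPM in BM, and it was 23.2-fold lower in M-BMDM but 1.69-fold lower in GM-BMDM, short of the limit. H2-Eb2, another class II beta gene of the region, had 0.644 CPM in GM-BMDM, 0.107 CPM in M-BMDM and 5.88 CPM in BM. B lineage markers were at 43.2 CPM in GM-BMDM, of which Cd22 gave 41.4, and at 5.42 CPM in M-BMDM, against 1231 CPM in BM. Of these markers, 11 of 12 were lower in GM-BMDM and 12 of 12 in M-BMDM, beside 22.3% and 23% of all genes. The part of B lineage cells in the higher DO values of BM was not tested.

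Of the related genes, those of peptide generation and turnover were mostly higher in culture. In GM-BMDM 13 of 15 were higher and 0 lower, and in M-BMDM 10 of 15 were higher and 1 lower. Of all genes, 19.8% were higher and 22.3% lower in GM-BMDM, and 20.1% and 23% in M-BMDM. Of the 6 genes of T cell contact, 4 were higher and 1 lower in GM-BMDM, and 5 were higher and 1 lower in M-BMDM. These are too few to set against those shares. Ctsd, Ctsl and Ctss had log2 ratios of 6.06, 5.76 and 5.43 in GM-BMDM against BM, and 4.21, 4.69 and 4.22 in M-BMDM against BM. March1 was higher in GM-BMDM (log2 ratio 1.43) and lower in M-BMDM (-1.77) than in BM. In the list of transcription factors and upstream signals, GM-BMDM had 3 of 20 higher and 2 lower than BM. M-BMDM had 3 higher and 1 lower, and none of these counts exceeded the shares of all genes. Irf4 was the lower one in M-BMDM, at 2.31 CPM in M-BMDM and 65.1 CPM in BM, and Prdm1, a repressor of Ciita in plasma cells, was higher in both, at 14.2 CPM in GM-BMDM, 20.03 CPM in M-BMDM and 2.26 CPM in BM.

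Interleukin-6 is a cytokine that signals through STAT3. In M-BMDM given it for 24 h, most class II genes were lower. No untreated M-BMDM library is labelled as kept for those added 24 h, so time in culture and interleukin-6 cannot be told apart. Of the 10 genes, 7 were at least 2-fold lower than in untreated M-BMDM and 0 higher, where 8.93% and 11.5% of 10313 genes were lower and higher. The other 3 genes, H2-DMb2, H2-Oa and H2-Ob, were below 5 CPM in both libraries and could not be counted. The median log2 ratio of the 10 genes was -1.61, and that of all genes 0.02. Against the 3 h library in place of the untreated one, the same rule gave 7 lower and 0 higher, where 8.59% and 11.7% of 10274 genes were lower and higher, with a median of -1.70 for the 10 genes.

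The classical chains differed most. H2-Ab1 had 281 CPM in untreated M-BMDM, 326 CPM at 3 h and 45.1 CPM at 24 h, so that the 24 h library was 6.24-fold below the untreated one. H2-Eb1 had 160 CPM untreated, 173 CPM at 3 h and 30.3 CPM at 24 h, and was 5.29-fold lower at 24 h. H2-Aa had 209 CPM untreated, 235 CPM at 3 h and 47.8 CPM at 24 h, and was 4.38-fold lower at 24 h. The 24 h level was below the other 5 libraries for all 3 genes, BM included.

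DM and the invariant chain were lower by less. H2-DMb1 had 72.9 CPM untreated, 78.8 CPM at 3 h and 21.9 CPM at 24 h, a log2 ratio of 24 h over untreated of -1.74 (-1.88 to -1.59). H2-DMa had 27.9 CPM untreated, 29.2 CPM at 3 h and 9.92 CPM at 24 h, a log2 ratio of -1.49 (-1.72 to -1.27). Cd74 had 876 CPM untreated, 1016 CPM at 3 h and 346 CPM at 24 h, a log2 ratio of -1.34 (-1.38 to -1.30). The counting intervals of the 3 classical chains, from -2.74 to -2.04 in all, thus lay below those of H2-DMb1, H2-DMa and Cd74. Ciita had 17.5 CPM untreated, 17.3 CPM at 3 h and 8.01 CPM at 24 h, a log2 ratio of -1.12 (-1.39 to -0.86), the smallest difference among the 7 genes, with an interval that overlapped that of Cd74; scaled by total counts, its ratio of -0.99 fell short of 2-fold and 6 genes were lower.

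The 24 h group was a lone library, to which the edgeR quasi-likelihood fit gave the spread of the 3 h pairs, so its p-values do not measure variation between cultures given interleukin-6 for 24 h. Under that assumption 8 of the 10 genes fell at 24 h and 0 rose, where 22.6% of all genes fell and 24.2% rose. The log2 change was -2.68 ± 0.12 (SE) for H2-Ab1, -1.39 ± 0.12 (SE) for Cd74, -1.01 ± 0.16 (SE) for Ciita and -1.81 ± 0.42 (SE) for H2-DMb2. H2-Oa had an adjusted p of 0.085 and H2-Ob of 0.76. With a coefficient of variation of 0.2 for all genes in place of that spread, 7 of the 10 genes fell and Ciita did not pass.

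**Figure D3:**
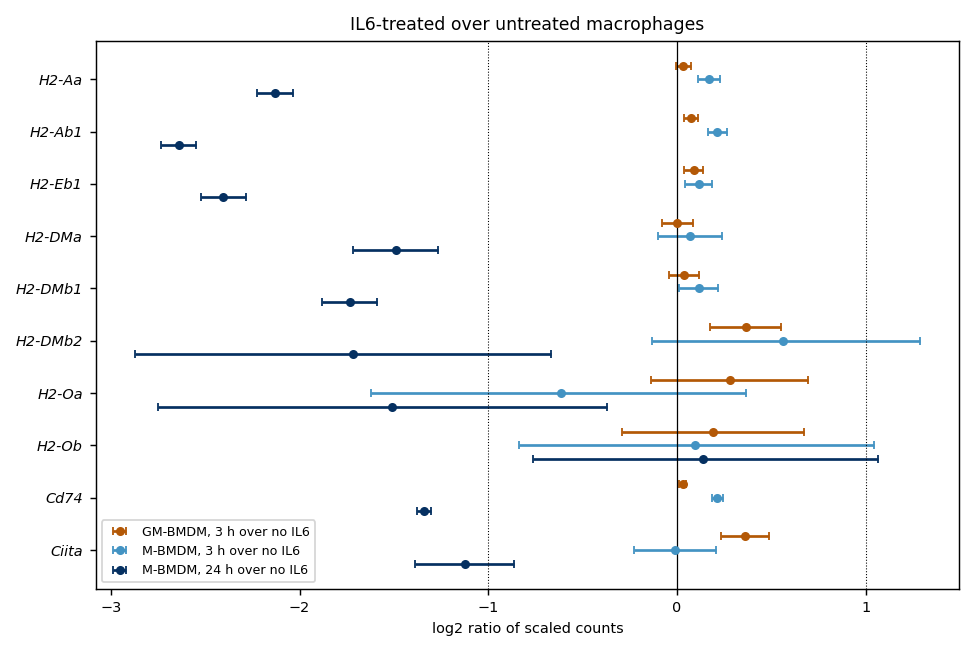
Log2 ratio of interleukin-6-treated over untreated macrophages (horizontal axis) for each gene, with exact 95% counting intervals as bars and dotted lines at 2-fold. The 3 h values of GM-BMDM and M-BMDM lay within 2-fold of 0 for all 10 genes, whereas the 24 h values of M-BMDM lay between -2.64 for H2-Ab1 and 0.14 for H2-Ob.

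The related lists divided at 24 h. All 5 genes of T cell contact that could be counted were lower at 24 h, where 8.93% of 10313 genes were. The list held 6 genes, too few to set against that share. Cd86, a costimulatory ligand, had 5.77 CPM at 24 h and 91.7 CPM untreated, and Cd40 had 5.98 CPM at 24 h and 47.9 CPM untreated. Cd80, the other costimulatory ligand, had 6.23 CPM at 24 h and 21.1 CPM untreated, Icam1, an adhesion molecule, had 73.7 CPM at 24 h and 229 CPM untreated, and Cd274 had 14.3 CPM at 24 h and 41.0 CPM untreated. The peptide generation and turnover genes went both ways, with 4 of 15 that rose and 7 that fell in the fit, where 24.2% of all genes rose and 22.6% fell. March1 was higher at 24 h (log2 ratio 1.18, 0.94 to 1.42), and Cd82 (-1.75) and Cd83 (-1.58), which takes part in keeping class II at the cell surface, were lower, as was the protease Ctsz (-1.24). In the transcription list 5 of 20 rose and 10 fell, so the rising counts of both lists lay near the share of all genes. Jak2, a kinase of the interferon-gamma receptor, was the only countable gene of that list past 2-fold, at 34.8 CPM at 24 h and 125 CPM untreated, and Ifngr2, a chain of that receptor, was just short of it at -0.99 (-1.07 to -0.92). Rfx5 rose, with 20.5 CPM at 24 h and 12.5 CPM untreated.

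Macrophage markers at 24 h summed to 27358 CPM, against 34098 CPM in untreated M-BMDM. Of the 10 markers, 1 was higher and 0 lower, where 11.5% and 8.93% of 10313 genes were. Dendritic cell markers summed to 134 CPM at 24 h and 184 CPM untreated, of which Bst2 gave 117 CPM at 24 h and 155 CPM untreated; 0 of the 2 with at least 5 CPM differed by 2-fold. Flt3 and Siglech were at 0 counts at 24 h.

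**Figure D4:**
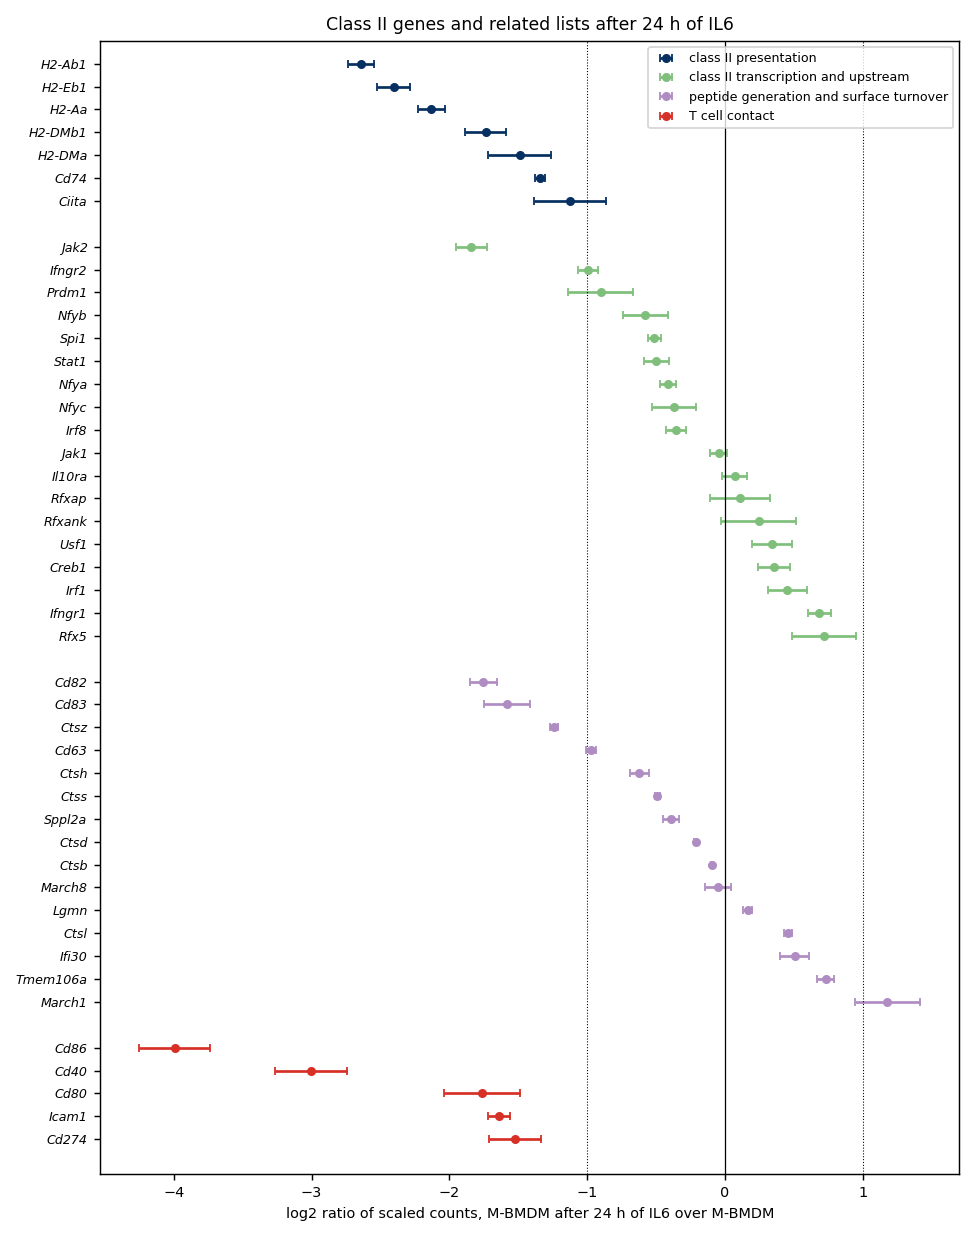
Log2 ratio of M-BMDM after 24 h of interleukin-6 over untreated M-BMDM (horizontal axis) for the countable genes of 4 lists, with exact 95% counting intervals as bars and dotted lines at 2-fold. The 7 class II genes and the 5 genes of T cell contact all lie below -1, while the transcription and the turnover lists lie on both sides of 0.

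After 3 h of interleukin-6 no class II gene differed by 2-fold in either macrophage type. In GM-BMDM, 0 of the 10 genes were higher and 0 lower, where 0.0585% and 0.107% of 10255 genes were. In M-BMDM, 0 were higher and 0 lower, where 0.0906% and 0.272% of 9939 genes were. The edgeR fit over both pairs gave 0 genes of the 10 at an adjusted p under 0.05, where 0.19% of all genes rose and 0.808% fell; at an unadjusted p under 0.05 it gave 1, H2-DMb2 (log2 change 0.40 ± 0.14 SE, adjusted p = 0.24). The DESeq2 Wald test gave 0 and limma-voom 0 at an adjusted p under 0.05, with 0 and 2 unadjusted.

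Judged by counting error alone, some of the small differences at 3 h were not the same in the 2 cultures. The edgeR fit counted such differences between the cultures as its spread. Ciita had 58.1 CPM in GM-BMDM IL6 3 h and 45.2 CPM in GM-BMDM, a log2 ratio of 0.36 (0.24 to 0.49), and 17.3 CPM in M-BMDM IL6 3 h and 17.5 CPM in M-BMDM, for a log2 ratio of -0.01 (-0.23 to 0.21). The GM-BMDM ratio minus the M-BMDM ratio was 0.37 (0.13 to 0.62) for Ciita and -0.18 (-0.22 to -0.15) for Cd74, which was 0.03 in GM-BMDM and 0.21 in M-BMDM. H2-Aa and H2-Ab1 also differed in that way, by -0.14 each, while the interval included 0 for the other 6 genes. These intervals cover counting error only; with 1 pair per culture the differences were not tested against the spread between libraries.

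The proportions between partners varied as well. H2-DMb2 made up 17.0% of the counts of both DM beta genes in GM-BMDM IL6 3 h (15.6% to 18.4%) and 13.99% in GM-BMDM (12.8% to 15.2%), but 2.02% in M-BMDM (1.35% to 2.91%), 2.74% at 3 h (2.03% to 3.61%) and 2.04% at 24 h (1.02% to 3.63%). In BM it made up 55.3% (52.8% to 57.8%). The intervals of the 3 times in M-BMDM overlapped, while the sum of both genes was lower at 24 h. H2-DMa over the sum of both beta genes, per kilobase, was 1.02 in GM-BMDM IL6 3 h and 1.09 in GM-BMDM, 0.475, 0.457 and 0.563 in M-BMDM at 0, 3 and 24 h, and 0.849 in BM.

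The ratio of H2-DMa to H2-Oa, the matching chain of DO, per kilobase was 22.7 in GM-BMDM IL6 3 h (18.6 to 28.0) and 27.5 in GM-BMDM (22.5 to 34.0), 23.2, 37.2 and 23.5 in M-BMDM at 0, 3 and 24 h, and 3.51 in BM (3.07 to 4.01). The 5 cultures did not separate from each other, since their intervals overlap, but all lay above BM. H2-Oa over H2-Ob was 2.08 in GM-BMDM IL6 3 h and 1.957 in GM-BMDM, 1.76, 1.07 and 0.562 (0.243 to 1.20) in M-BMDM at 0, 3 and 24 h, and 0.272 (0.239 to 0.309) in BM, with 10 to 27 counts behind each M-BMDM value. Cd74 over H2-Ab1 was 3.31 in GM-BMDM IL6 3 h (3.24 to 3.39), 3.41 in GM-BMDM (3.34 to 3.49), 2.68 in M-BMDM, 2.68 at 3 h, 6.59 at 24 h (6.19 to 7.03) and 2.57 in BM (2.48 to 2.66), so this ratio was highest in the library where both genes were lowest. H2-Aa over H2-Ab1 was 1.03 in GM-BMDM IL6 3 h, 1.06 in GM-BMDM, 0.799 in M-BMDM, 0.775 at 3 h, 1.14 at 24 h and 1.08 in BM.

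**Figure D5:**
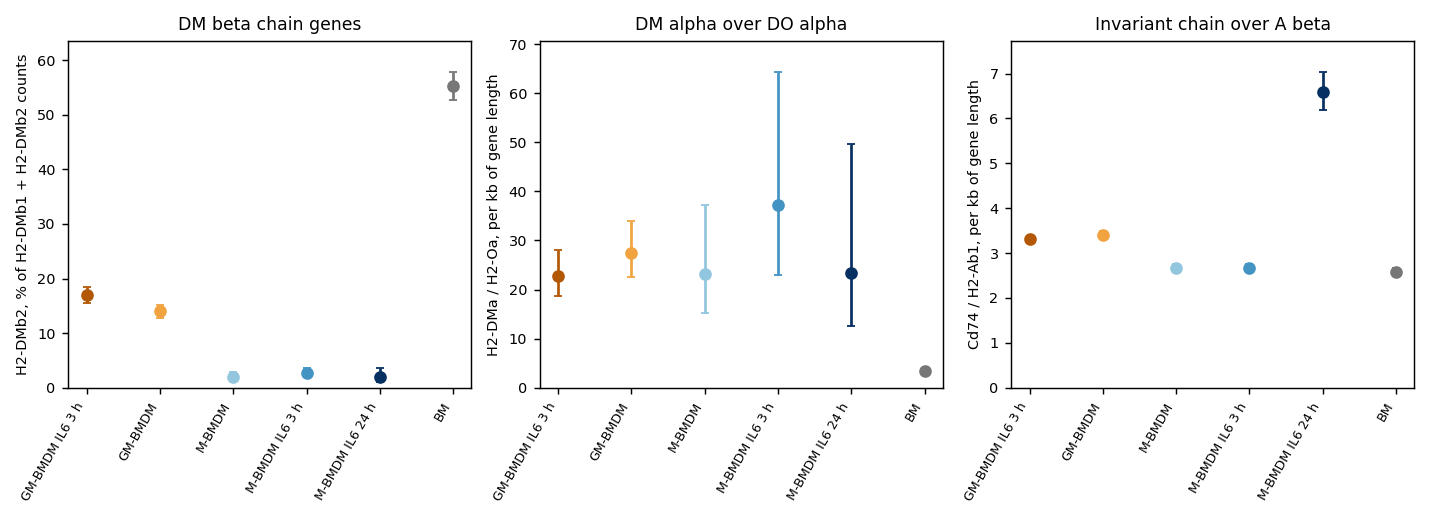
Proportions between partner genes in the 6 libraries, with exact 95% counting intervals as bars and vertical axes from 0: the share of H2-DMb2 in the counts of both DM beta genes (%), H2-DMa over H2-Oa and Cd74 over H2-Ab1 (both per kilobase of gene length). BM has the highest H2-DMb2 share, 55.3%, and the lowest ratio of H2-DMa to H2-Oa, 3.51, and M-BMDM after 24 h of interleukin-6 has the highest ratio of Cd74 to H2-Ab1, 6.59.

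The profile of the classical genes over the 6 libraries was compared with those of other genes. The mean of the centred log2(CPM + 1) profiles of H2-Aa, H2-Ab1, H2-Eb1 and Cd74 served as the pattern, and 9995 of the 10434 genes with at least 10 CPM in some library were ranked, without predicted, clone-based and antigen receptor names, by their Euclidean distance to it. The nearest gene outside these 4 was Arrdc4, an arrestin-domain protein, at a distance of 0.421, with 85.0 CPM in GM-BMDM IL6 3 h, 86.6 CPM in GM-BMDM, 34.7, 34.4 and 7.35 CPM in M-BMDM at 0, 3 and 24 h, and 20.9 CPM in BM. Ccrl2, a chemerin-binding receptor (0.696), Malt1, a signalling protease (0.747), Il13ra1, a cytokine receptor chain (0.787), and Htra1, a secreted protease (0.882), came next, then Csf1, which encodes M-CSF itself (0.909), Hist1h2bc (0.910), Zyx (0.9501), Acsl1 (0.957) and Ptgir (0.987). Of the other 6 members, H2-DMb1 ranked 15, H2-DMa 29 and Ciita 46, whereas H2-Oa ranked 3983, H2-DMb2 7608 and H2-Ob 9364. The likeness is over 6 libraries, 5 of them cultures, and describes levels only.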

How the data were processed

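Total RNA was sequenced on an Illumina NovaSeq, per the labels, in 6 libraries. The deposited values are expected counts per gene (estimated counts, as the authors made them before rounding here): 23.9% to 27.0% of nonzero values per library had a fraction. HISAT2, StringTie, DESeq2 and GRCm38 are named in the submitters' processing notes, with no version or order, and strand use is not given in the sources used here. Expected counts were rounded to whole numbers. Of 56278 rows, 742 had no gene name (0.240% to 0.522% of counts) and were left out; all 55536 named rows matched GENCODE M21 by gene identifier, and 55509 had the same symbol there. Genes with a CPM of at least 1 in some library (14719) were kept. CPM here are counts scaled by TMM (edgeR 4.0.16, R 4.3.3).

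In 8 pairs of libraries, TMM-scaled counts were divided and the exact 95% Clopper-Pearson interval of each ratio computed. Calls of higher or lower required 2-fold or more, an interval that left out 1, and 5 CPM or more in the higher library. With 1 library per group there is no replicate check, and reads carry no molecular identifiers, so intervals cover counting error only. A library at 0 counts would enter a fold as 3 counts. edgeR's quasi-likelihood test was fitted once to the 6 libraries (terms: cell type, IL6 3 h, IL6 24 h), which left 1 residual degree of freedom (biological coefficient of variation 6.45%), and Benjamini-Hochberg adjustment over all genes at 0.05. Its p-values set each effect against a spread that measures only how far the 3 h response of GM-BMDM differs from that of M-BMDM. That spread may be technical. Promoters and motifs were read with Python 3.11.15; SciPy 1.17.1 and Biopython 1.88 gave intervals and alignments.

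The rule named all 10 genes in every comparison (by range or count where no value is printed); of each related list up to 4 genes with the largest ratio among those counted were named, and the 10 genes nearest the classical profile. Ctss and Rfx5 in GM-BMDM against M-BMDM, March1 against BM, Cd274, Rfx5 and Ifngr2 at 24 h, and single markers were named after their values were seen. The genes and lists were chosen with earlier results of these data known. Alternatives were DESeq2 1.42.0 size factors and Wald test, total counts, upper-quartile factors, no filter, filters at 1 and 5 CPM, a 1.5-fold limit, limma-voom (limma 3.58.1), a fixed coefficient of variation of 0.2 and a fit of 4 libraries. Both procedures were tested on simulated data.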

Additional observations from a re-analysis of the deposited data

How the results depend on the processing

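At a limit of 1.5-fold in place of 2-fold, 3 of the 10 genes in place of 1 were higher and 5 in place of 3 were lower in M-BMDM than in BM, and 8 in place of 5 were higher in GM-BMDM than in M-BMDM; the other 93 counts of class II genes over pairs and settings stayed within 1.5 times the count reported, as did the 46 counts from the tests. Of the ratios of single genes, 270 moved by less than their counting interval and 50 by more, and no ratio called higher or lower changed sign. Uncalled ratios did for H2-Eb1 in M-BMDM against BM (0.05 to -0.12 with total counts), and near 0 for Ciita and H2-DMa at 3 h and H2-Ob at 24 h against 3 h. With total counts, H2-Eb1 in GM-BMDM against BM (0.72), Cd74 in GM-BMDM IL6 3 h against M-BMDM IL6 3 h (0.93; H2-Oa, under 5 CPM there, was lost too, leaving 4 genes in place of 6) and Ciita at 24 h against none (-0.99) and against 3 h (-0.93) lost their calls, while Ciita in M-BMDM (-1.02) and H2-DMb2 in GM-BMDM (-1.08) gained one against BM. H2-Eb1 gained one in GM-BMDM against M-BMDM with DESeq2 size factors (1.02 without IL6, 1.01 at 3 h) and upper-quartile factors (1.09 and 1.05). The log2 change of H2-Oa after 3 h of IL6, -0.003 as reported, was 0.00363 with DESeq2 size factors, 0.00756 with no filter, 0.00503 with a filter at 5 CPM and 0.10 with limma-voom; it passed no test. Ciita at 24 h lost its call with a coefficient of variation of 0.2 (log2 change -1.03). Scaling by total counts moved the median log2 ratio of all genes to -0.16 for M-BMDM against BM (0.02 with TMM), -0.39 for GM-BMDM against BM (-0.04), -0.19 for GM-BMDM against M-BMDM (-0.03), -0.14 for the same pair after 3 h (-0.03), 0.16 for M-BMDM IL6 24 h against M-BMDM (0.02) and 0.20 against M-BMDM IL6 3 h (0.01). For GM-BMDM against BM it gave 1692 higher and 3450 lower genes (2249 and 2534 with TMM), for GM-BMDM against M-BMDM 904 and 1191 (1134 and 908), and for M-BMDM IL6 24 h against M-BMDM IL6 3 h 1568 and 685 (1204 and 883). The cause was not tested. Over all genes, the DESeq2 Wald test called 2695 that rose and 2267 that fell in GM-BMDM relative to M-BMDM (4265 and 4030 with edgeR), 0 and 3 at 3 h (28 and 119), and 1706 and 1825 at 24 h (3558 and 3325), with the same counts of class II genes, 10, 0 and 8. With a fixed coefficient of variation of 0.2, 2548 rose and 1810 fell in GM-BMDM, 19 and 19 at 3 h, and 1482 and 1261 at 24 h. No paired analysis was possible because each group had 1 library and the labels give no replicate numbers; leaving out a replicate was not possible either. Depth limits H2-Oa, H2-Ob and H2-DMb2 in M-BMDM cultures, where they had 10 to 49 counts.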
